A study of Homo sapiens with 24 samples.

Results

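The transcripts of 10 heat shock chaperone genes were followed in every RNA-seq library of a paired ovarian cancer model. They were chosen by name as genes that respond to the transcription factor HSF1: the HSP70 genes HSPA1A, HSPA1B and HSPA8, the HSP40 gene DNAJB1, the HSP110 gene HSPH1, the HSP90 gene HSP90AA1, the small heat shock gene HSPB1, the mitochondrial pair HSPD1 and HSPE1, and the co-chaperone gene BAG3. The choice was made with earlier results of these data known. All 10 were among the 28277 genes listed in each of the 2 count tables. PEO1 and PEO4 are high-grade serous ovarian carcinoma lines that share a donor. PEO1 is the cisplatin-sensitive and PEO4 the cisplatin-resistant line.

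The 24 libraries fell into 8 conditions of 3 biological replicates. The smaller table, called A here, held 6 libraries of untreated PEO1 cells that lack functional BRCA2 through a nonsense mutation and of untreated PEO4 cells, in which a reversion restores BRCA2. The larger table, called B here, held 18 libraries of PEO1BRCA+ cells, a PEO1 line in which BRCA2 reverted spontaneously, and of PEO4 cells, each untreated or given 5 µM pyridostatin (PDS) for 2 or 6 h. The authors added sodium pyruvate to the medium of the table A cells and do not list it for the table B cells. PDS is a small molecule that binds G-quadruplexes (G4s), the folded structures of guanine-rich DNA. The comparisons ask how the drug-sensitive and drug-resistant cells differ before treatment and how each responds when G4s are targeted. Each PEO1 type is a single line, so a difference between lines cannot be told apart from a difference between these cultures. The untreated libraries of table B are labelled 0 h, and none was taken untreated at 2 or 6 h. Handling and time in culture therefore cannot be told apart from PDS.

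Heat shock proteins are molecular chaperones, which keep other proteins soluble and help them fold. HSP70 binds exposed hydrophobic stretches with HSP40 as the co-chaperone that delivers clients, HSP110 and BAG proteins release the nucleotide that ends each cycle, HSP90 matures kinases and steroid receptors, small heat shock proteins hold unfolded clients, and the HSP60 and HSP10 proteins form a folding chamber in mitochondria. When unfolded protein accumulates, HSF1 is freed, forms trimers and binds heat shock elements, which are inverted repeats of GAA, upstream of these genes. HSPA8 and the HSP90 genes are also abundant in unstressed cells.

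The heat shock element was looked for in the 250 bases upstream of each member's start, because it is the sequence through which HSF1 acts on these genes. The letters GAANNTTC or TTCNNGAA, searched on both strands, were present in 8 of the 10 members and in 11.6% of 35116 RefSeq promoters over the same 250 bases. The extended form, in which a further GAA or TTC follows the shorter letters after 2 more free bases so that the units keep alternating, was present in 4 of 10 members and in 0.441% of promoters. HSPE1 and BAG3 held neither form in this window. The members were chosen as HSF1-responsive genes, so these shares describe the choice and do not test it. HSPA1A and HSPA1B, which are near copies, are counted separately. The sequences are given for the 4 members with an extended form, which is rare among promoters, and for DNAJB1 and HSPB1, the members that differed most between the lines after PDS by p-value at 6 h and, HSPA1A aside, by size at 2 h. Each runs 5′ to 3′ on the gene's own strand and ends at the base before the start, and the capitals mark matches to the shorter letters, merged where they overlap.
HSPA8: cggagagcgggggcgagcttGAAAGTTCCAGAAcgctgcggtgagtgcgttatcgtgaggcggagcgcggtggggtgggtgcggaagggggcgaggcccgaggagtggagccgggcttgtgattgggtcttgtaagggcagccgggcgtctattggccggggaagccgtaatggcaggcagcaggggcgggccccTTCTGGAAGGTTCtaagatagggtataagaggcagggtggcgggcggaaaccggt
HSPH1: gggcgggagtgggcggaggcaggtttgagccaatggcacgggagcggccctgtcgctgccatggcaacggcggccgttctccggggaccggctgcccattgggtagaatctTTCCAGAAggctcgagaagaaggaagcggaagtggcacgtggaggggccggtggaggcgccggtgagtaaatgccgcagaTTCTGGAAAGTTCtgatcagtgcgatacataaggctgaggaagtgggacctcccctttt
HSP90AA1: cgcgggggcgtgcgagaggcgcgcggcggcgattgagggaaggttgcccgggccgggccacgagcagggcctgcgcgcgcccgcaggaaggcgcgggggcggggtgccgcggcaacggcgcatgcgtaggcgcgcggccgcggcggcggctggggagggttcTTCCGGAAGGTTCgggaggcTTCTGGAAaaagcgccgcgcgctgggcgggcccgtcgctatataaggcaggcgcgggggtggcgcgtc
HSPD1: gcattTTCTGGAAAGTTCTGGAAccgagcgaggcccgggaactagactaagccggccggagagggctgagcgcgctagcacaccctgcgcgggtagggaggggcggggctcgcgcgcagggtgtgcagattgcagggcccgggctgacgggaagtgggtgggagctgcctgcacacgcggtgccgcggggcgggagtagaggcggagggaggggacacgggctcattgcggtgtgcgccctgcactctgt
DNAJB1: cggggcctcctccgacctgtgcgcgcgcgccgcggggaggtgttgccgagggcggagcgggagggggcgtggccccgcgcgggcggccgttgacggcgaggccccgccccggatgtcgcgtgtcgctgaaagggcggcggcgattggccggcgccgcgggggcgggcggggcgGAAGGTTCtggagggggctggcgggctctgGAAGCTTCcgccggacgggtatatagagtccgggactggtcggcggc
HSPB1: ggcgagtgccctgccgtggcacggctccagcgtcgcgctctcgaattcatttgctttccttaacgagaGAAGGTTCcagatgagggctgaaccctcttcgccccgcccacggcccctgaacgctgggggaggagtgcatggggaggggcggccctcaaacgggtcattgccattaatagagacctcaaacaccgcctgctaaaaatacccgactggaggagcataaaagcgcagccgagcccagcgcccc

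These sequences lie in GRCh38 at chr11:123062137-123062386 for HSPA8, chr13:31161905-31162154 for HSPH1, chr14:102087045-102087294 for HSP90AA1, chr2:197499841-197500090 for HSPD1 and chr19:14518398-14518647 for DNAJB1, all on the minus strand, and at chr7:76302423-76302672 for HSPB1 on the plus strand. They were read from the genome at the starts of the members' GENCODE transcripts. All but that of HSPH1 were the same as the upstream bases of a RefSeq promoter of the gene. The share over all promoters rests on RefSeq starts. The nearest match began 50 bases before the start in HSPA8, 47 in DNAJB1, 54 in HSPH1 and 68 in HSP90AA1. In HSPB1 it began 182 bases and in HSPD1 235 bases before the start. HSPD1 and HSPE1 lie head to head on chromosome 2, with starts at positions 197499840 and 197500379. The matches of HSPD1 lie between these starts but outside the window searched for HSPE1, chr2:197500129-197500378. A G-quadruplex motif (4 runs of at least 3 G with loops of 1 to 7 bases, on either strand) was present upstream of HSPB1, HSPD1 and BAG3, and in 23.5% of all promoters. A match in this window describes letters only.

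Not every member can be counted equally well. HSPA1A and HSPA1B, neighbouring single-exon genes at chr6:31815543-31817942 and chr6:31827738-31830254 of GRCh38, are near copies of each other and are carried again on alternate contigs. For both, 100% of the 100-base windows of their exon had an exact copy elsewhere, against 20.3% for HSPD1 and at most 7.96% for any other member. HSPA1A had between 0 and 16 counts per library and HSPA1B between 31 and 203. The abundance of these stress-inducible HSP70 genes is therefore uncertain in these tables, and no fitted fold change is given for HSPA1A. HSPE1 shares exons with the read-through gene HSPE1-MOB4, which had 0 counts in every library of table A and 3002 to 14654 in table B. Levels were therefore tested only within a table, and a gene's A and B values are not compared.

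The total of gene counts ranged from 32528913 to 63882077 a library in table A, between 18699929 and 22375644 in the untreated libraries of table B and between 33260167 and 43713947 in the PDS libraries. Ribosomal RNA genes took 0.217% to 0.474% of counts in the untreated and 0.0164% to 0.0369% in the PDS libraries of table B, so depth and residual ribosomal RNA moved with treatment and cannot be told apart from it. All 7 epithelial and ovarian carcinoma markers were detected in every condition, at summed levels of 4035 to 9279 CPM (counts scaled to library size). Of the 4 leukocyte markers, CD3E had 0 counts in every library and PTPRC at most 2, and the summed list lay between 36.8 and 60.8 CPM in untreated PEO4 of table B, 72.7 and 82.1 CPM at 2 h, 66.9 and 76.3 CPM at 6 h and 28.5 and 53.3 CPM elsewhere. The 5 summed fibroblast markers were lower with PDS in PEO4, at 31.3 to 33.9 CPM untreated, 8.18 to 12.1 CPM at 2 h and 3.16 to 4.31 CPM at 6 h. They lay between 2.61 and 7.78 CPM in PEO1BRCA+, 32.7 and 36.3 CPM in PEO1 of table A and 8.39 and 13.2 CPM in its PEO4, and the 3 endothelial markers between 0.0586 and 2.96 CPM in all. Their part in the results was not tested, and in bulk RNA fewer cells of a type and less RNA per cell cannot be told apart.

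After normalization by TMM, the chaperones differed widely in level. Levels between genes are given per kilobase of transcript, as CPM per kb. In untreated PEO1BRCA+ cells, HSPA8 stood at 736 ± 110 CPM per kb (SD, n = 3) and HSP90AA1 at 671 ± 91.3, and their libraries overlapped. HSPD1 followed at 380.3 ± 21.8, HSPB1 at 299 ± 13.8, HSPE1 at 215 ± 13.4 and DNAJB1 at 158 ± 0.319 CPM per kb. BAG3 at 39.5 ± 1.65, HSPH1 at 25.6 ± 3.51 and HSPA1B at 0.635 ± 0.121 CPM per kb were lower, and from HSP90AA1 down to HSPA1B no neighbours in this order overlapped. In untreated PEO4 cells of the same table the order changed at the top. HSPB1 led at 759 ± 33.2 CPM per kb, above HSPA8 at 525 ± 32 and HSP90AA1 at 511 ± 91.5, which overlapped each other. After 6 h of PDS in PEO4, HSP90AA1 led at 1522 ± 21.1 and HSPA8 was next at 1093 ± 17.5, while HSPB1, HSPE1 and HSPD1 formed overlapping neighbours at 632 ± 29.9, 623 ± 12.3 and 617 ± 9.73 CPM per kb.

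**Figure D1:**
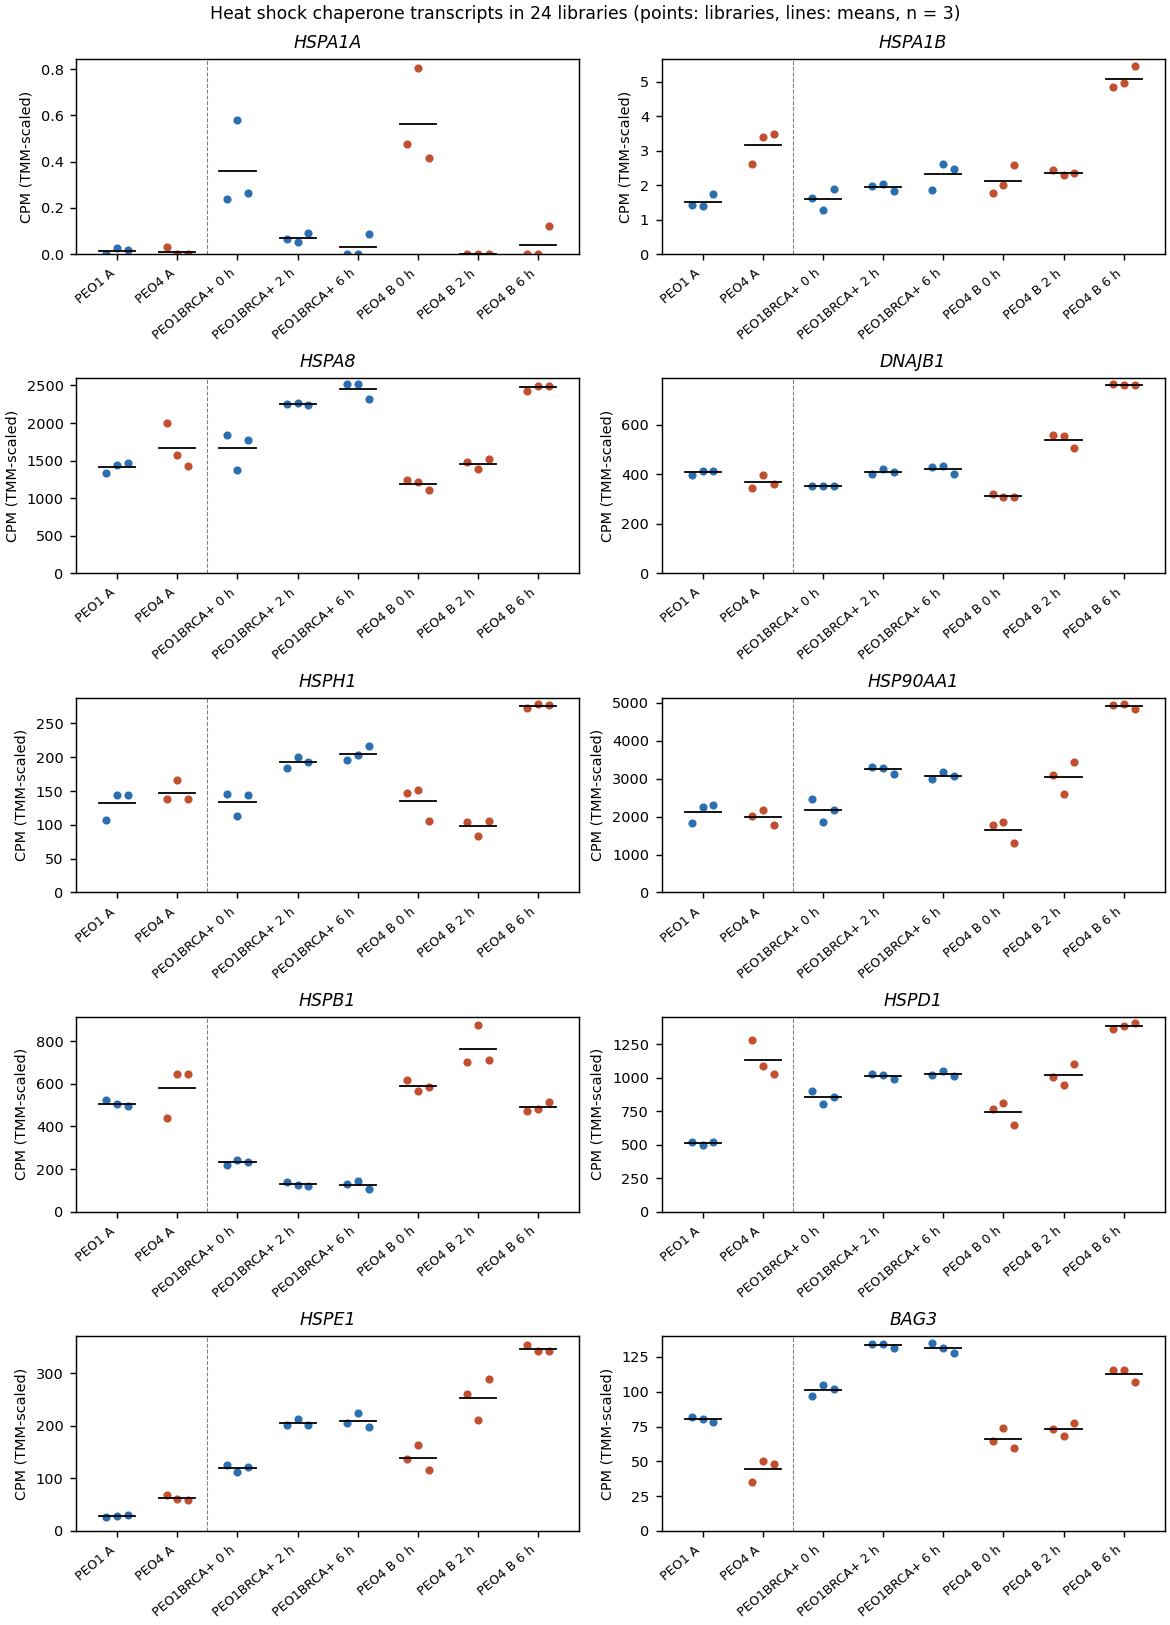
TMM-scaled CPM (vertical axis, linear from 0) of each chaperone gene in the 8 conditions (horizontal axis; 0, 2 and 6 h are hours of 5 µM PDS, A and B the 2 tables, split by the dashed line); points are libraries, lines are means of 3, blue is PEO1 and red is PEO4. In PEO4 B at 6 h the libraries of HSP90AA1 sit at 4950, 4955 and 4835 CPM and those of DNAJB1 at 765, 759.6 and 760 CPM, above all other libraries of table B.

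The first comparison asked how the chaperones differ between untreated PEO4 cells and BRCA2-deficient PEO1 cells. The mitochondrial pair was more than 2-fold higher in PEO4, and BAG3 was lower. HSPD1, which encodes the HSP60 ring of the mitochondrial folding chamber, was at 519, 501 and 522 CPM in the PEO1 libraries and at 1282, 1089 and 1028 CPM in the PEO4 libraries. HSPE1, which encodes the HSP10 lid of that chamber, was at 25.6, 28.5 and 30.2 CPM in PEO1 and at 68.9, 61.1 and 59.1 CPM in PEO4. Every PEO4 library was above every PEO1 library for both genes.

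With edgeR's quasi-likelihood test and Benjamini-Hochberg adjustment over the 15882 genes tested, the log2 fold change of HSPD1 was 1.14 ± 0.0941 (SE, adjusted p = 4.18e-07) and that of HSPE1 1.17 ± 0.0924 (adjusted p = 2.95e-07). HSPA1B was at 1.42, 1.39 and 1.73 CPM in PEO1 and at 2.62, 3.40 and 3.49 CPM in PEO4, a log2 fold change of 1.05 ± 0.23 (adjusted p = 0.00154), with its reads shared as described above. BAG3, which couples HSP70 to small heat shock proteins and to selective autophagy, was at 81.7, 80.8 and 78.5 CPM in PEO1 and at 35.5, 50.2 and 47.8 CPM in PEO4, lower in every PEO4 library (log2 fold change −0.86 ± 0.113, adjusted p = 3.94e-05).

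Of the 9 members tested (HSPA1A had 0 to 2 counts and did not pass the filter on low counts), 3 were higher and 1 lower at an adjusted p under 0.05, beside 30.1% of all genes higher and 31.6% lower. A gene was called where the absolute log2 fold change was also over 1, which held for 3 of 9 members and 25.8% of all genes, so the members' count is near the background. The cytosolic chaperones HSPA8, DNAJB1, HSPH1, HSP90AA1 and HSPB1 did not pass, with log2 fold changes between −0.15 (DNAJB1) and 0.24 (HSPA8) and overlapping libraries. HSPB1 passed without the first PEO4 library (0.36, adjusted p = 0.000104) and HSPA8 without the third (0.34, adjusted p = 0.0292) and, with all libraries, under upper-quartile scaling (0.30, adjusted p = 0.0394).

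In the pair with BRCA2 function in both lines, HSPB1 was the member that passed the test as higher in PEO4. This small heat shock gene, which encodes HSP27, was at 221, 242 and 235 CPM in the PEO1BRCA+ libraries and at 618, 567 and 585 CPM in the PEO4 libraries. All PEO4 libraries were above all PEO1BRCA+ libraries, and the log2 fold change was 1.34 ± 0.0983 (adjusted p = 3.24e-10). BAG3 was at 96.8, 105 and 102 CPM in PEO1BRCA+ and at 64.8, 73.9 and 59.3 CPM in PEO4, lower without overlap (−0.62 ± 0.0662, adjusted p = 9.04e-09), as it was in table A.

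HSPA8, the constitutive HSP70, was at 1841, 1379 and 1776 CPM in PEO1BRCA+ and at 1245, 1214 and 1107 CPM in PEO4, which was lower in every library (−0.49 ± 0.0764, adjusted p = 4.13e-06). HSP90AA1, the inducible HSP90, was also lower in every PEO4 library (−0.39 ± 0.119, adjusted p = 0.00756), as was DNAJB1, the HSP40 that delivers clients to HSP70 (−0.18 ± 0.0522, adjusted p = 0.00362). HSPD1 was lower with overlapping libraries (−0.20 ± 0.0685, adjusted p = 0.0111). It did not pass when only these 2 groups were fitted (adjusted p = 0.0603), without the first PEO1BRCA+ library (adjusted p = 0.0673) or without the third PEO4 library (adjusted p = 0.1). HSPE1 had a log2 difference of 0.22 ± 0.111 (adjusted p = 0.0962), which passed without the third PEO4 library (adjusted p = 0.00799), and HSPH1 one of 0.01 ± 0.129 (adjusted p = 0.965). HSPA1B was at 1.63, 1.28 and 1.89 CPM in PEO1BRCA+ and at 1.78, 2.01 and 2.58 CPM in PEO4, in ranges that overlapped, and its log2 difference of 0.41 ± 0.201 did not pass (adjusted p = 0.0744). It passed when summed with HSPA1A (0.45, adjusted p = 0.0279), with counts thinned to the lowest library total (0.52, adjusted p = 0.0371), without the third PEO1BRCA+ library (adjusted p = 0.0367) and without the first PEO4 library (adjusted p = 0.0355). HSPA1A had 5, 14 and 6 counts in PEO1BRCA+ and 11, 16 and 9 in PEO4.

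Thus 1 of 10 members was higher and 5 were lower, against 34% and 34.6% of the 17020 genes tested, and 1 of 10 was called, against 24.8%. The differences of HSPD1 and HSPE1 in this pair, −0.20 and 0.22 on the log2 scale, stand beside 1.14 and 1.17 in table A. The difference between the pairs was not tested, since the tables were made separately. The medium also differed in sodium pyruvate, so BRCA2 status, medium and table cannot be told apart here.

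**Figure D2:**
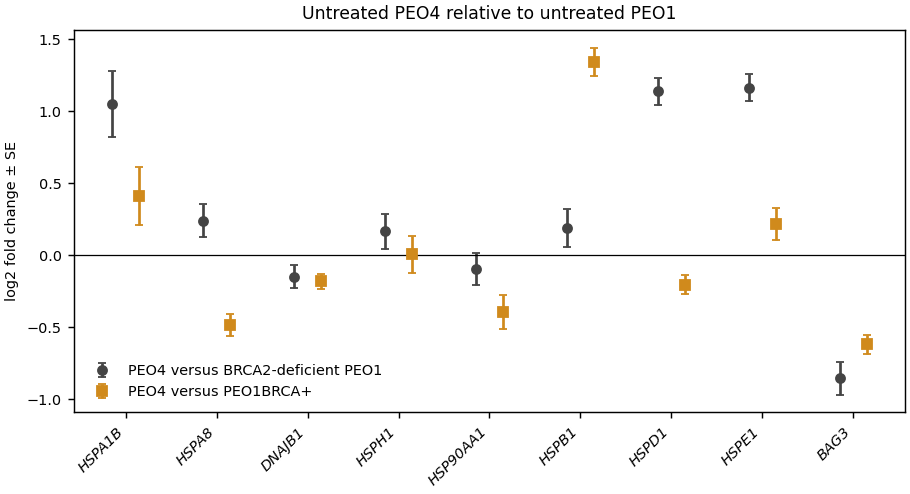
Log2 fold change of untreated PEO4 relative to untreated PEO1 (vertical axis, error bars are the SE of the fit, n = 3 libraries a group) for 9 chaperone genes, with BRCA2-deficient PEO1 and PEO1BRCA+ as the reference in turn. HSPD1 and HSPE1 stand at 1.14 and 1.17 in the first pair, HSPB1 at 1.34 in the second, and BAG3 lies below 0 in both.

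Most of the chaperones were higher with PDS in PEO1BRCA+ cells, by less than 2-fold, with levels at 6 h close to those at 2 h. Depth and residual ribosomal RNA also differed between these libraries, as given above. At 2 h the cytosolic HSPA8, HSPH1 and HSP90AA1 rose 1.35-, 1.44- and 1.496-fold, and the mitochondrial HSPE1 rose 1.72-fold. HSPB1 went the other way and was 1.8-fold lower at 2 h.

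HSPE1 was at 126, 112 and 121 CPM untreated, at 203, 213 and 203 CPM after 2 h and at 206, 225 and 199 CPM after 6 h. All treated libraries were above all untreated ones, with log2 fold changes of 0.78 ± 0.11 (adjusted p = 1.42e-05) and 0.81 ± 0.11 (adjusted p = 9.63e-06). HSP90AA1 was at 2456, 1867 and 2177 CPM untreated, at 3306, 3285 and 3134 CPM after 2 h and at 2991, 3182 and 3063 CPM after 6 h. It rose by 0.58 ± 0.119 on the log2 scale at 2 h (adjusted p = 0.000606) and by 0.51 ± 0.119 at 6 h (adjusted p = 0.00183), again without overlap.

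HSPA8 went from 1841, 1379 and 1776 CPM untreated to 2253, 2270 and 2234 CPM at 2 h and 2524, 2518 and 2322 CPM at 6 h, log2 fold changes of 0.44 ± 0.0762 (adjusted p = 3.65e-05) and 0.56 ± 0.0763 (adjusted p = 1.21e-06). HSPH1, the HSP110 that exchanges the nucleotide of HSP70, was at 145, 113 and 144 CPM untreated, 184, 200.1 and 193 CPM at 2 h and 196, 203 and 217 CPM at 6 h. No treated library of either gene lay among the untreated ones, and HSPH1 rose by 0.52 ± 0.127 (adjusted p = 0.00294) and 0.61 ± 0.127 (adjusted p = 0.000844).

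Smaller rises were measured for BAG3, HSPD1 and DNAJB1. BAG3 rose by 0.40 ± 0.0643 at 2 h (adjusted p = 1.24e-05) and 0.38 ± 0.0643 at 6 h (adjusted p = 2.68e-05), HSPD1 by 0.25 ± 0.0684 (adjusted p = 0.00342) and 0.27 ± 0.0684 (adjusted p = 0.00201). DNAJB1 was at 354, 354 and 353 CPM untreated, 402, 423 and 407 CPM at 2 h and 427, 435 and 400.2 CPM at 6 h, a rise of 0.22 ± 0.052 (adjusted p = 0.00122) and 0.25 ± 0.052 (adjusted p = 0.000263). DNAJB1 and HSPD1 did not pass with scaling by library totals, where their log2 fold changes were 0.07 and 0.10 at 2 h and 0.10 and 0.12 at 6 h. Under that scaling the median of all genes was −0.17 at 2 h and −0.17 at 6 h, against −0.03 and −0.03 with TMM.

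HSPB1 was at 221, 242 and 235 CPM untreated, at 141, 127 and 119.5 CPM after 2 h and at 129, 145 and 106 CPM after 6 h, below every untreated library. Its log2 fold changes were −0.85 ± 0.0982 (adjusted p = 7.47e-07) and −0.88 ± 0.0983 (adjusted p = 4.5e-07). HSPA1B, a stress-inducible HSP70 gene, had 31 to 43 counts per untreated library, 61 to 78 at 2 h and 69 to 86 at 6 h. Its log2 fold change was 0.28 ± 0.192 (adjusted p = 0.224) and then 0.53 ± 0.188 (adjusted p = 0.0195). The 6 h value did not pass when summed with HSPA1A (0.25, adjusted p = 0.219) or with scaling by library totals or upper quartiles (adjusted p = 0.0871 and 0.0506). Nor did it pass without the second untreated library (adjusted p = 0.115) or without the second or the third library at 6 h (adjusted p = 0.0788 and 0.0539). HSPA1A had 5, 14 and 6 counts untreated, 2, 2 and 3 at 2 h and 0, 0 and 3 at 6 h.

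Counting HSPA1A, 7 of 10 members rose and 2 fell at 2 h, against 26.4% and 26.2% of all genes, and 8 rose and 2 fell at 6 h, against 27% and 26%. The call that also asks for a 2-fold change held for 1 of 10 members at each time (HSPA1A, on these few counts), against 7.57% and 8.13% of all genes. Between 2 and 6 h no member passed edgeR's test, where 3.96% of genes rose, 2.98% fell and 0.17% were called. At an unadjusted p under 0.05 there were 0 of 10 members by edgeR and 0 of 10 by DESeq2, and the log2 differences of the 9 members other than HSPA1A lay between −0.07 (HSP90AA1) and 0.25 (HSPA1B).

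In PEO4 cells HSPA8, DNAJB1, HSP90AA1, HSPD1 and HSPE1, 5 of the 10 members, rose from untreated to 2 h and again from 2 to 6 h. After 6 h of PDS, HSP90AA1 had risen 2.98-fold, HSPE1 2.50-fold, DNAJB1 2.44-fold, HSPA8 2.08-fold and HSPH1 2.05-fold over untreated cells. HSPD1 rose 1.87-fold and BAG3 1.71-fold. HSPB1 rose at 2 h and was below its untreated level at 6 h.

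HSP90AA1 was at 1781, 1855 and 1310 CPM untreated, at 3090, 2597 and 3427 CPM after 2 h and at 4950, 4955 and 4835 CPM after 6 h. The 3 conditions did not overlap. Its log2 fold change was 0.88 ± 0.12 at 2 h (adjusted p = 6.04e-06) and 1.58 ± 0.121 at 6 h (adjusted p = 4.43e-09). DNAJB1 climbed in the same order, from 321, 307 and 308 CPM to 559.6, 556 and 505 CPM and to 765, 759.6 and 760 CPM, with log2 fold changes of 0.79 ± 0.0523 (adjusted p = 2.73e-12) and 1.29 ± 0.0527 (adjusted p = 3.41e-16).

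The mitochondrial pair rose at both times. HSPE1 was at 138, 164 and 116 CPM untreated, 261, 211 and 289 CPM at 2 h and 355, 343 and 343 CPM at 6 h (0.87 ± 0.11, adjusted p = 2.31e-06, and 1.32 ± 0.111, adjusted p = 9.74e-09). HSPD1 was at 764, 811 and 649.7 CPM untreated, 1008, 947 and 1103 CPM at 2 h and 1365, 1384 and 1409 CPM at 6 h (0.46 ± 0.0685, adjusted p = 2.41e-06, and 0.90 ± 0.0689, adjusted p = 2.43e-11). Neither gene's treated libraries overlapped its untreated ones. Summed with the read-through gene HSPE1-MOB4, a setting chosen after seeing the data, HSPE1 had log2 fold changes of 0.74 and 1.17.

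HSPH1 took another course. It was at 147, 152 and 105 CPM untreated, at 104, 82.8 and 106 CPM after 2 h and at 273, 278 and 277 CPM after 6 h. Its log2 fold change was −0.46 ± 0.128 at 2 h (adjusted p = 0.00511), with 1 untreated library inside the range of the 2 h libraries, and 1.04 ± 0.128 at 6 h (adjusted p = 2.98e-06). Between the times it rose 2.83-fold (1.5 ± 0.129, adjusted p = 1.03e-07).

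HSPA8 was at 1245, 1214 and 1107 CPM untreated, 1475, 1384 and 1517 CPM at 2 h and 2428, 2499 and 2494 CPM at 6 h, in 3 ranges that did not overlap. It rose by 0.30 ± 0.0762 (adjusted p = 0.0015) at 2 h, by 1.06 ± 0.077 (adjusted p = 1.02e-11) at 6 h and by 0.76 ± 0.0765 (adjusted p = 8.73e-09) between the times. BAG3 was at 64.8, 73.9 and 59.3 CPM untreated, 72.9, 68.5 and 77.3 CPM at 2 h and 115, 116 and 107 CPM at 6 h, where only the 6 h libraries stood clear of the others. Its log2 fold change was 0.15 ± 0.0658 at 2 h (adjusted p = 0.0561), which passed without the second untreated library (adjusted p = 0.0023), without the second 2 h library (adjusted p = 0.017) and with no filter on low counts (adjusted p = 0.0308), and 0.77 ± 0.0656 at 6 h (adjusted p = 1.62e-10).

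HSPA1B had 40 to 56 counts per untreated library, 81 to 98 at 2 h and 163 to 203 at 6 h, with log2 fold changes of 0.16 ± 0.178 (adjusted p = 0.452) and 1.26 ± 0.167 (adjusted p = 3.13e-07). Summed with HSPA1A these were −0.18 (adjusted p = 0.336) and 0.93 (adjusted p = 6.52e-06). HSPA1A itself had 11, 16 and 9 counts untreated, 0, 0 and 0 at 2 h and 0, 0 and 4 at 6 h. Taking 3 counts per library as the floor, the scaled counts of HSPA1A at 2 h were at least 7.05-fold lower than untreated. That bound covers counting error only and not reads shared with HSPA1B, so a change in HSPA1A transcript is not established.

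HSPB1 was at 618, 567 and 585 CPM untreated, at 701, 877 and 714 CPM after 2 h and at 474, 482 and 517 CPM after 6 h, in ranges that did not overlap. It rose by 0.37 ± 0.096 at 2 h (adjusted p = 0.0022) and had a log2 fold change of −0.27 ± 0.0961 at 6 h (adjusted p = 0.0194). The 6 h value did not pass with no filter on low counts (adjusted p = 0.0559), without the first or the third untreated library (adjusted p = 0.0759 and 0.0517) or without the first or second 6 h library (adjusted p = 0.0714 and 0.0597).

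In all, 6 of 10 members rose and 2 fell at 2 h in PEO4, against 33.3% and 32% of all genes, and 8 rose and 2 fell at 6 h, against 34.6% and 35.2%. Called members numbered 1 of 10 at 2 h (HSPA1A), against 17.4%, and 7 of 10 at 6 h, against 22.6%. Of these 7, 6 were higher: HSPA1B, HSPA8, DNAJB1, HSPH1, HSP90AA1 and HSPE1. When HSPA1A and HSPA1B were summed, the sum was not called (0.93), and 5 members were. HSPA8 (1.06) and HSPH1 (1.04) lay just above the threshold. Among all genes called at 6 h, 27.7% were higher, and 17.3% with scaling by library totals. Between 2 and 6 h, 8 of 10 rose and 1, HSPB1, fell (−0.64 ± 0.0962, adjusted p = 1.24e-05), against 28.9% and 31.3% of genes. Of the 10, 2 (HSPH1 and HSPA1B) were called, against 12%. In PEO4 the 10 members had a median log2 fold change of 0.33 at 2 h and 1.05 at 6 h, beside 0.00 and −0.03 over all genes tested. In PEO1BRCA+ it was 0.34 and 0.44, beside −0.03 and −0.03.

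**Figure D3:**
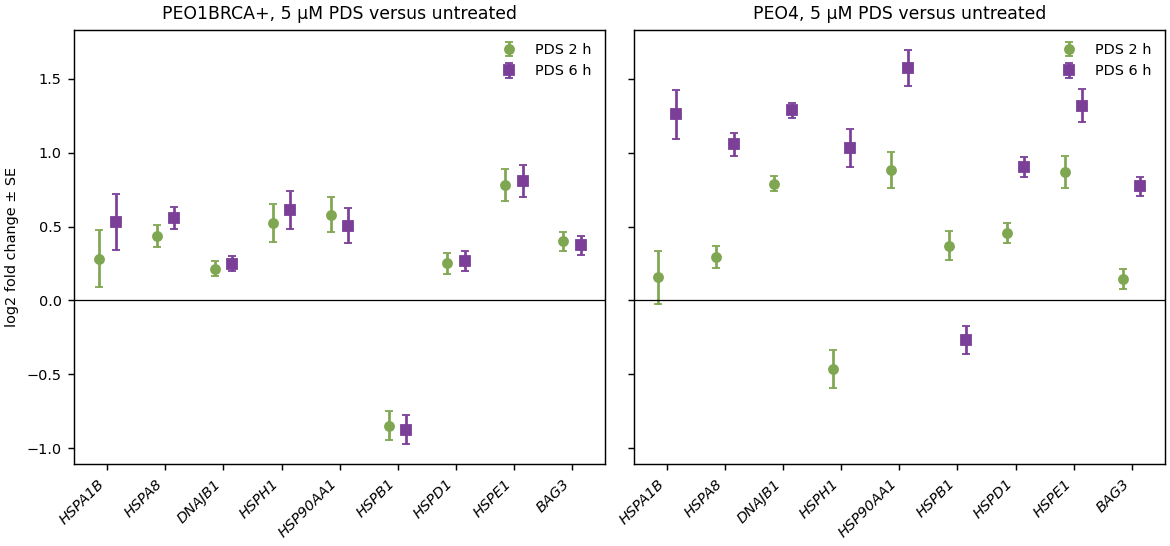
Log2 fold change of 9 chaperone genes after 2 h and 6 h of 5 µM PDS relative to untreated cells (vertical axis, error bars are the SE of the fit, n = 3 libraries a group) in PEO1BRCA+ (left) and PEO4 (right). In PEO1BRCA+ the times lie close together, whereas in PEO4 the 6 h points stand above those at 2 h for every gene but HSPB1.

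Whether the lines responded differently was tested as an interaction, the PEO4 response minus the PEO1BRCA+ response. The untreated libraries of each line serve both times. At 6 h, 8 of 10 members had a higher value in PEO4 and 0 a lower one, against 24.4% and 23% of all genes. DNAJB1 (1.04 ± 0.0737, adjusted p = 5.86e-11) and HSP90AA1 (1.07 ± 0.168, adjusted p = 6.73e-05) were called, 2 of 10 against 14.8%. The others that passed were HSPD1 (0.64 ± 0.0968, adjusted p = 8.53e-06), HSPB1 (0.61 ± 0.137, adjusted p = 0.00116), HSPE1 (0.51 ± 0.155, adjusted p = 0.012), HSPA8 (0.50 ± 0.108, adjusted p = 0.000492), BAG3 (0.40 ± 0.0916, adjusted p = 0.000916) and HSPA1B (0.73 ± 0.255, adjusted p = 0.0212), the last not with counts thinned to the lowest library total (0.40, adjusted p = 0.27) and not without the first untreated PEO4 library (adjusted p = 0.0679), the third untreated PEO1BRCA+ library (adjusted p = 0.0889) or the first PEO1BRCA+ library at 6 h (adjusted p = 0.0661). For HSPB1 a higher value means a smaller fall. The HSPH1 difference of 0.42 ± 0.179 did not pass (adjusted p = 0.0672), but did by DESeq2's Wald test (adjusted p = 0.03) and without the second untreated library of PEO1BRCA+ (adjusted p = 0.0166) or of PEO4 (adjusted p = 0.031).

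At 2 h the differences between the lines ran in both directions. DNAJB1 rose more in PEO4 (0.58 ± 0.0736, adjusted p = 1.07e-06), and HSPB1, which rose in PEO4 and fell in PEO1BRCA+, differed by 1.22 ± 0.137 (adjusted p = 1.08e-06). HSPH1, which fell in PEO4 and rose in PEO1BRCA+, differed by −0.99 ± 0.181 (adjusted p = 0.000542). BAG3 differed by −0.26 ± 0.0919 (adjusted p = 0.0318). It did not pass when only the groups compared were fitted (adjusted p = 0.0509) or without the second untreated PEO4 library (−0.17, adjusted p = 0.107). Nor did it pass without the first untreated PEO1BRCA+ or the second 2 h library of either line (adjusted p = 0.0773, 0.0559 and 0.0701). With HSPA1A, on its few counts, 2 of 10 members were higher and 3 lower, against 19.3% and 18% of genes, and 2 of 10 were called, against 11%.

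HSPA8 (−0.14 ± 0.108, adjusted p = 0.326), HSP90AA1 (0.30 ± 0.168, adjusted p = 0.177) and HSPE1 (0.09 ± 0.155, adjusted p = 0.704) did not pass at 2 h. HSPD1 (0.21 ± 0.0967, adjusted p = 0.0945) passed without the second untreated PEO4 library (adjusted p = 0.0213), without the second PEO4 library at 2 h (adjusted p = 0.0386) and with scaling by library totals (adjusted p = 0.0392).

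Together the 10 genes took 0.601% ± 0.058 (SD, n = 3) of all counts in untreated PEO1BRCA+ libraries, 0.732% ± 0.013 after 2 h and 0.739% ± 0.0157 after 6 h. In PEO4 the share was 0.516% ± 0.0462 untreated, 0.709% ± 0.0404 at 2 h and 1.03% ± 0.00721 at 6 h, where each library was above every other library of the table. In table A it was 0.52% ± 0.0404 in PEO1 and 0.602% ± 0.0458 in PEO4.

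The counts of HSPE1 divided by those of HSPD1, whose products work as a pair, were 0.14 ± 0.00115 (SD, n = 3) untreated, 0.203 ± 0.00593 at 2 h and 0.204 ± 0.00863 at 6 h in PEO1BRCA+. In PEO4 they were 0.187 ± 0.0133, 0.248 ± 0.0216 and 0.25 ± 0.00849. The ratio was higher in every treated library than in every untreated library of its line. With 3 libraries against 3 an exact permutation test cannot go below p = 0.1, so the share and the ratio were not tested. HSPE1 and HSPB1 are the members with transcripts under 1 kb, and genes of that length had a median log2 fold change of −0.06 at 2 h in PEO1BRCA+ and 0.04 at 2 h in PEO4.

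**Figure D4:**
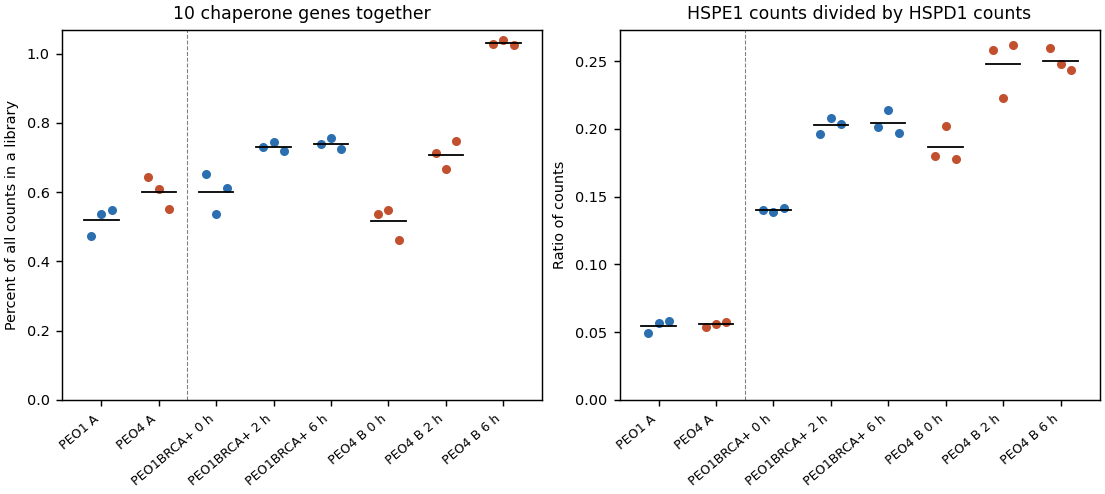
Share of all counts taken by the 10 chaperone genes (left, percent) and HSPE1 counts divided by HSPD1 counts (right, a ratio without unit) in each library; points are libraries, lines are means of 3, and the dashed line splits the 2 tables. In PEO4 at 6 h the libraries hold 1.03% to 1.04% of counts in these genes, and in PEO1BRCA+ the ratio goes from at most 0.141 untreated to at least 0.196 with PDS.

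Other genes of the protein folding network were read from hand-written lists in the same fits. HSF1, the main activator of the response, was higher in untreated PEO4 than in PEO1BRCA+ (1.26 ± 0.0552, adjusted p = 3.79e-16) and than in BRCA2-deficient PEO1 (0.62 ± 0.0733, adjusted p = 1.02e-05). After 6 h of PDS it rose in PEO4 (0.38 ± 0.0538, adjusted p = 9.29e-07), and in PEO1BRCA+ its log2 fold change was 0.08 ± 0.0547 (adjusted p = 0.232). The interaction was 0.30 ± 0.0766 (adjusted p = 0.00238). HSF2 rose in PEO4 at 2 h (0.30 ± 0.0722, adjusted p = 0.000829), and its 6 h value of 0.06 ± 0.073 did not pass (adjusted p = 0.455).

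Of 17 other cytosolic HSP70, HSP40 and HSP90 genes tested, 14 rose and 1 fell in PEO4 at 6 h (median log2 fold change 0.77), beside 34.6% and 35.2% of all genes. In PEO1BRCA+ 10 rose and 4 fell (median 0.33), beside 27% and 26%. HSPA4L, an HSP110 relative, went from 8.17 to 21.0 CPM in PEO4 (1.36 ± 0.102, adjusted p = 1.8e-11), and DNAJB4, an HSP40 of the family of DNAJB1, from 11.01 to 23.1 CPM (1.07 ± 0.0955, adjusted p = 3.85e-10). Between 2 and 6 h HSPA4L rose by 1.292 ± 0.0962 in PEO4 (adjusted p = 7.72e-11). Its 6 h interaction was 1.654 ± 0.145 (adjusted p = 2.01e-09). HSP90AB1, the constitutive HSP90, rose in both lines at 6 h (0.65 ± 0.073, adjusted p = 1.94e-08 in PEO4, and 0.44 ± 0.0729, adjusted p = 1.76e-05 in PEO1BRCA+). HSPA6, an HSP70 that is near silent in most unstressed cells, rose in PEO4 from 1.22 to 2.73 CPM (1.15 ± 0.208, adjusted p = 2.68e-05), and its PEO1BRCA+ value of 0.43 ± 0.193 did not pass (adjusted p = 0.0656).

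Of 18 co-chaperones tested, 14 rose and 1 fell in PEO4 at 6 h (median log2 fold change 0.64), beside 34.6% and 35.2% of all genes. In PEO1BRCA+ 11 rose and 2 fell (median 0.26), beside 27% and 26%. CHORDC1, a partner of HSP90, was at 65.7 CPM untreated, 38.0 CPM at 2 h and 189.8 CPM at 6 h in PEO4, lower and then higher than untreated like HSPH1. Its log2 fold changes were −0.79 ± 0.113 at 2 h (adjusted p = 9.33e-06), 1.53 ± 0.111 at 6 h (adjusted p = 1.34e-09) and 2.32 ± 0.113 between the times (adjusted p = 3.87e-11), and it differed from PEO1BRCA+ by −1.25 ± 0.157 at 2 h (adjusted p = 8.32e-06). SUGT1, another HSP90 partner (1.11 ± 0.0732, adjusted p = 1.66e-12), and AHSA1, which stimulates the HSP90 ATPase (1.03 ± 0.0936, adjusted p = 6.67e-09), were also called at 6 h. The 2 h interaction of BAG1 was −1.165 ± 0.107 (adjusted p = 6.26e-09).

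The 8 subunits of the TRiC chaperonin, which folds actin and tubulin, all rose at both times in both lines, where 26.4% and 27% of all genes rose at 2 and 6 h in PEO1BRCA+ and 33.3% and 34.6% in PEO4. They had median log2 fold changes of 0.58 at 2 h and 0.53 at 6 h in PEO1BRCA+ and 0.51 and 0.95 in PEO4. TCP1 (1.34 ± 0.088, adjusted p = 1.68e-11), CCT5 (1.08 ± 0.0782, adjusted p = 1.33e-11) and CCT2 (1.05 ± 0.0779, adjusted p = 2.3e-11) were called in PEO4 at 6 h.

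Of 9 other mitochondrial chaperones and proteases tested, 5 rose and 1 fell in PEO4 at 6 h (median log2 fold change 0.40), beside 34.6% and 35.2% of all genes. In PEO1BRCA+ 6 rose and 0 fell (median 0.28), beside 27% and 26%. HSPA9, the mitochondrial HSP70, rose in PEO4 (0.66 ± 0.064, adjusted p = 1.85e-09) and in PEO1BRCA+ (0.39 ± 0.0642, adjusted p = 1.41e-05), and GRPEL1, its nucleotide exchange factor, was called in PEO4 (1.003 ± 0.0559, adjusted p = 8.65e-14). Of 11 chaperones of the endoplasmic reticulum tested, 6 rose and 0 fell in PEO4 at 6 h (median log2 fold change 0.16), beside 34.6% and 35.2% of all genes. In PEO1BRCA+ 3 rose and 0 fell (median 0.12), beside 27% and 26%. HSPA5, their main HSP70, did not pass at 6 h in PEO4 (0.16 ± 0.0886, adjusted p = 0.119) or PEO1BRCA+ (0.14 ± 0.0886, adjusted p = 0.192).

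Of 6 other small heat shock genes tested, 1 rose and 3 fell in PEO4 at 6 h (median log2 fold change −1.39), beside 34.6% and 35.2% of all genes. In PEO1BRCA+ 2 rose and 2 fell (median −0.12), beside 27% and 26%. The 3 that fell in PEO4, named after their values were seen, were CRYAB (from 8.57 to 0.732 CPM), HSPB8 (from 13.2 to 4.28 CPM) and HSPB3 (from 1.10 to 0.396 CPM). Of 5 HSF1-responsive genes that are not HSP70 or HSP90 chaperones tested, 1 rose and 3 fell in PEO4 at 6 h (median log2 fold change −0.19), beside 34.6% and 35.2% of all genes. In PEO1BRCA+ 2 rose and 2 fell (median 0.12), beside 27% and 26%.

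Between the untreated lines, called genes of these lists were found in both directions. In table A, HSPA9 (1.32 ± 0.0906, adjusted p = 8.07e-08), HSP90AB1 (1.47 ± 0.0983, adjusted p = 6.34e-08), HSPA4 (1.23 ± 0.0833, adjusted p = 7.26e-08) and CCT8 (1.18 ± 0.0756, adjusted p = 4.18e-08) were higher in PEO4, as were FKBP5, CACYBP and BAG2, with log2 fold changes of 1.21, 1.07 and 1.004. HSPA2 (−2.61 ± 0.141, adjusted p = 9.89e-09) and HMOX1, which degrades heme (−4.14 ± 0.225, adjusted p = 1.27e-07), were lower. In table B, HSP90AB1 (1.05 ± 0.0736, adjusted p = 3.73e-12) and BAG2 (1.24 ± 0.0943, adjusted p = 3.65e-11) were again higher, and FKBP4 (−1.01 ± 0.0802, adjusted p = 7.19e-11) and DNAJB11 (−1.01 ± 0.0746, adjusted p = 1.05e-11) were lower.

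**Figure D5:**
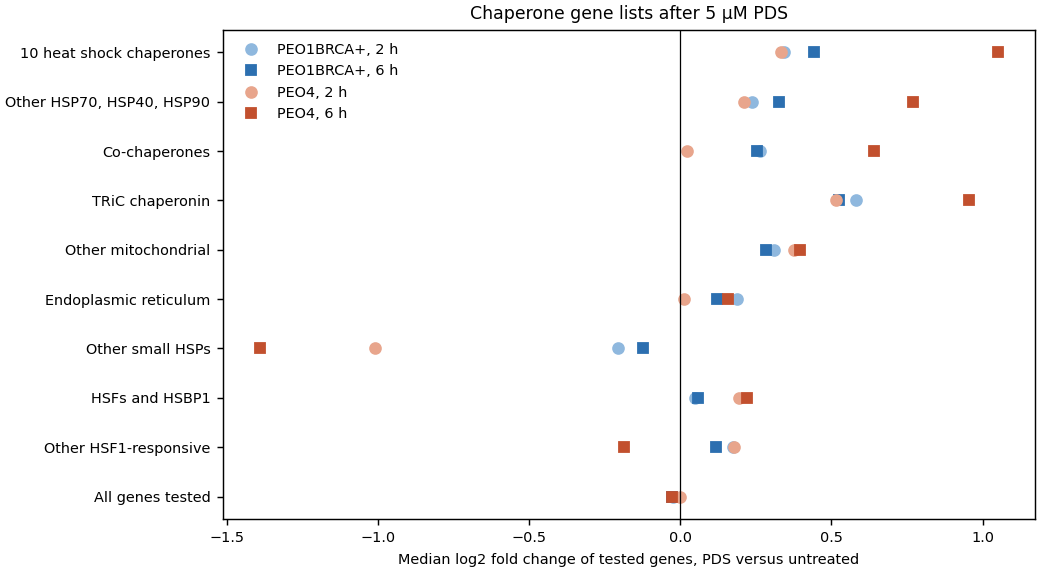
Median log2 fold change of the tested genes of each chaperone list (rows) after 5 µM PDS relative to untreated cells, for PEO1BRCA+ (blue) and PEO4 (red) at 2 h and 6 h. In PEO4 at 6 h the heat shock chaperones stand at 1.05 and TRiC at 0.95, the other small heat shock proteins at −1.39 and all genes tested at −0.03.

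Among themselves, the members did not all follow one course over the 18 libraries of table B. The log2 CPM of HSP90AA1 and HSPD1 had a Pearson r of 0.99 and that of HSPD1 and HSPE1 one of 0.92. HSPA8 had an r of 0.90 with BAG3 and of 0.52 with DNAJB1, and HSPB1 one of −0.84 with BAG3. These values describe 18 libraries that fall into 6 conditions and share differences in depth, and they carry no test.

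Of 10234 genes compared, with a mean log2 CPM of at least 3, those most like DNAJB1 over the 18 libraries were EPB41L2 (Pearson r = 0.982, Spearman rho = 0.942), MRPL15 (0.981 and 0.959) and MTIF2 (0.979 and 0.944). Those most like HSPE1 were the overlapping HSPE1-MOB4 (0.992 and 0.969), BYSL (0.99 and 0.969) and PPM1G (0.988 and 0.934). The libraries share conditions and depth here too, so these values are a description.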

How the data were processed

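RNA of 24 libraries was sequenced as polyA-selected, paired-end RNA-seq. The authors deposited 2 tables of raw counts per gene, made per the labels with FastQC, fastp, STAR on hg38 and featureCounts. The annotation and the strand and multi-mapping settings are not given in the sources used here. Each table listed 28277 genes, and 2 lines of table A and 1 of table B held no readable counts and were left out. Of the counts from 1 to 10, 73.4% of 19069 were even in table A and 41.5% of 71836 in table B, so a count may not stand for the same unit in both. Comparisons were therefore made within a table.

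Genes passing filterByExpr of edgeR 4.0.16 (minimum count 10, minimum total 15; R 4.3.3) were scaled by TMM and fitted with 1 mean per condition by the robust quasi-likelihood method. P-values were adjusted by Benjamini-Hochberg over all genes tested in a table. A gene rose or fell at an adjusted p under 0.05 and was called where the absolute log2 fold change was also over 1. Log2 CPM for correlations used a prior count of 2. Each fit was first tested on simulated data in which 200 genes were changed.

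Alternatives were DESeq2 1.42.0, other scalings and filters, thinning, a replicate block, only the groups compared, summed near copies and each library left out. All members are described. Other genes come from lists, and those named are at most the 3 called genes of a list with the largest absolute log2 fold change and a mean log2 CPM of at least 3, plus HSF1, HSF2, HSPA5, HSPA9, HSP90AB1 and HSPA6. The 3 genes with the highest r to DNAJB1 and to HSPE1 are named. CRYAB, HSPB8 and HSPB3 fall outside this rule and were named after their values were seen. The members and lists were chosen with earlier results of these data known. The labels call the libraries of a condition biological replicates. The floor of 3 counts covers counting error only. The annotation used for positions and lengths was GENCODE 44.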

Additional observations from a re-analysis of the deposited data

Results flagged for a closer look

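For these chaperones the change with PDS differed between PEO4 and PEO1BRCA+ by the interaction test of edgeR, adjusted over all genes tested. At 2 h the difference, as log2 fold change in PEO4 minus that in PEO1BRCA+, was 0.58 for DNAJB1 (adjusted p = 1.07e-06), −0.99 for HSPH1 (adjusted p = 0.000542), 1.22 for HSPB1 (adjusted p = 1.08e-06) and −0.26 for BAG3 (adjusted p = 0.0318). At 6 h it was 0.73 for HSPA1B (adjusted p = 0.0212), 0.50 for HSPA8 (adjusted p = 0.000492), 1.04 for DNAJB1 (adjusted p = 5.86e-11) and 1.07 for HSP90AA1 (adjusted p = 6.73e-05). HSPB1 differed by 0.61 (adjusted p = 0.00116), HSPD1 by 0.64 (adjusted p = 8.53e-06), HSPE1 by 0.51 (adjusted p = 0.012) and BAG3 by 0.40 (adjusted p = 0.000916). The values of BAG3 at 2 h and HSPA1B at 6 h did not pass in some other settings or with some libraries left out, as given above. HSPA1B also shares reads with HSPA1A.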

How the results depend on the processing

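By adjusted p alone, which drops the 2-fold threshold, the counts of called members were 6 between the untreated lines of table B, 9 and 10 in PEO1BRCA+ at 2 and 6 h, 8 in PEO4 at 2 h, 9 in PEO4 between the times, and 5 and 8 for the interaction at 2 and 6 h. With scaling by library totals the PEO1BRCA+ count at 6 h was 2. With a minimum count of 50, with thinning to the lowest library total and with HSPA1A and HSPA1B summed, the counts were 0 in PEO1BRCA+ at both times and 0 in PEO4 at 2 h. The first and last of these settings gave 1 for the interaction at 2 h, thinning gave 1 in PEO4 between the times, and fitting only the groups compared gave 0 in PEO1BRCA+ at both times. Summing HSPA1A and HSPA1B gave 5 in PEO4 at 6 h. The single called member of PEO1BRCA+ at both times and of PEO4 at 2 h was HSPA1A, at 0 to 16 counts, and otherwise the cause was not tested. Leaving out 1 library gave 0 to 1 in PEO1BRCA+ at 2 h, 1 to 2 in PEO4 at 2 h, 1 to 3 for the interaction at 2 h and 1 to 2 at 6 h.

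Of the log2 fold changes of the 9 members other than HSPA1A, those that changed sign did so without passing in either setting. They were HSPH1 between the untreated lines of table B (−0.004 with no filter on low counts, −8.2e-06 with thinning), BAG3 in PEO1BRCA+ between the times (0.013 with thinning) and HSPA1B in PEO4 at 2 h (−0.181 summed with HSPA1A). Over libraries left out, the ranges were −0.101 to 0.157 for HSPH1 between the untreated lines of table B, −0.273 to 0.041 for HSPA1B and −0.030 to 0.212 for HSPE1 in the 2 h interaction, and, in PEO1BRCA+ between the times, −0.134 to 0.088 for HSPB1, −0.001 to 0.030 for HSPD1 and −0.027 to 0.064 for HSPE1. Of the other values, 880 kept direction and side of the adjusted p threshold under the settings, while 11 no longer passed it and 6 newly passed. Over libraries left out, 610 kept both, 16 no longer passed and 11 newly passed.

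Pairing of the samples by replicate number was not established. Correlations of same-numbered deviations ran from −0.158 to 0.134, and in PEO4 at 6 h against untreated all 3 libraries correlated best with their own number. With 3 libraries a condition this check cannot exclude pairing. The replicate block changed no call of a member, and with it 7 members were called in PEO4 at 6 h, where the log2 fold change of HSP90AA1 was 1.58 (adjusted p = 2.06e-08).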
